A study of Homo sapiens with 4 samples.

Results

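The mRNAs of 10 regulators of origin licensing and firing, CDC6, CDT1, GMNN, LRWD1, DBF4, CDC7, CDC45, TICRR, TOPBP1 and RIF1, were followed in RNA recovered with ORC1. They were chosen by name, as the genes of the count table that GENCODE v44 assigns to these regulators. All 10 were found among the 63677 genes of the table, and all 10 passed the count filter that left 14645 genes for testing. The libraries came from nuclei of asynchronous HCT116 cells, a human colorectal carcinoma line, all of them transfected for 48 h with pcDNA3.1-ORC1-3xFLAG, a plasmid encoding a FLAG-tagged ORC1, a subunit of the origin recognition complex (ORC), from a codon-optimized sequence. RNA was sequenced from 2 anti-FLAG immunoprecipitates made without crosslinking (IP) and from the 2 nuclear lysates they were taken from (Input), numbered replicate 1 and 2 in each group. IP and Input share the transfection, and RNA held by beads or antibody alone was not measured in these libraries.

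Replication origins are set up in G1, when ORC and CDC6 recruit CDT1 with the MCM helicase onto DNA, a step called licensing. Geminin, the product of GMNN, blocks CDT1 outside G1, and LRWD1 (also ORCA) binds ORC on chromatin. In S phase the kinase CDC7 with its activator DBF4 phosphorylates MCM, TICRR (also Treslin) and TOPBP1 bring CDC45 to the helicase, and RIF1 carries the phosphatase PP1, which opposes CDC7.

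Total counts ran from 9213877 to 27483148 per library. The lowest count of any of the 10 mRNAs in any library was 256, for DBF4 in Input replicate 2. Levels are depth-scaled counts (CPM) with TMM factors from edgeR, a scaling that takes most RNAs to be equal between libraries. In bulk samples a change in the number of cells that hold an RNA and a change in its amount per cell cannot be told apart. IP and Input of a replicate came from the same lysate. Their difference is one between the RNA of the 2 libraries, and what set it was not tested. All 5 epithelial markers checked (EPCAM, KRT8, KRT18, KRT19 and CDH1) were present, and their summed level was 2313 to 2526 CPM in Input and 4127 to 4510 CPM in IP, and its part in the results was not tested. Leukocyte markers summed to at most 0.428 CPM and endothelial markers to at most 2.39 CPM. Of the fibroblast markers COL1A1 was present at 7.90 to 26.7 CPM, while DCN and LUM were at 0. The transfected gene ORC1 stood at 333 and 5063 CPM in Input replicates 1 and 2 and at 1108 and 18551 CPM in IP, so it was 15.2-fold and 16.7-fold higher in replicate 2. Plasmid and chromosomal ORC1 RNA were not separated.

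IP was set against Input to ask which of these mRNAs came down with ORC1-FLAG. Of the 10 mRNAs, 4 were enriched in the IP: RIF1, GMNN, TICRR and TOPBP1, by 2.46-fold to 2.86-fold. CDC45 was 1.95-fold higher and CDC7 0.551-fold of Input, and neither passed the test. CDC6, CDT1, DBF4 and LRWD1 were between 0.885-fold and 1.33-fold of Input and were not called. A gene was called at an edgeR quasi-likelihood adjusted p below 0.05 over all genes tested together with a log2 fold change above 1 or below -1. That rule called 10.5% of all tested genes enriched and 8.30% depleted, and 0 of the 10 mRNAs were depleted (DESeq2 and limma voom also called 0). At an unadjusted edgeR p below 0.05 alone, 5 of the 10 were higher and 1, CDC7, was lower. Over all 14645 tested genes 3078 were higher and 2608 lower. The same 4 mRNAs were called by DESeq2, which called 11.0% of its tested genes enriched and 7.66% depleted, and with a replicate block, which called 13.4% in each direction. They were also the ones called without a fold minimum (13.0% of all genes enriched and 9.96% depleted) and at an unadjusted p with the fold minimum (12.3% and 11.2%). The median log2 fold change of the 10 was 0.69, beside 0.01 (0.0079) over all genes tested. In 5 of the 10 both IP libraries lay above both Input libraries, as they did in 33.2% of all tested genes, and in 2 both lay below, as in 31.9%.

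**Figure D1:**
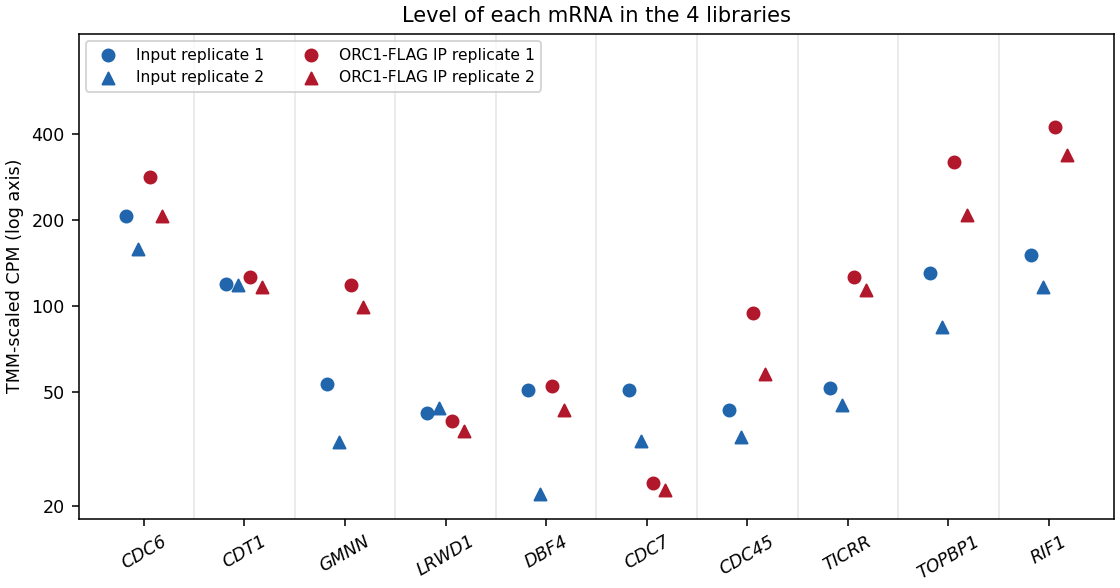
TMM-scaled CPM (log axis) of the 10 mRNAs in each of the 4 libraries, with Input in blue, IP in red, replicate 1 as circles and replicate 2 as triangles. GMNN, CDC45, TICRR, TOPBP1 and RIF1 have both IP points above both Input points, CDC7 and LRWD1 have both below, and the other 3 overlap.

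CDC6 and CDT1, the loaders of the MCM helicase, were not called. CDC6 (chr17:40287879-40304657, plus strand, GRCh38) measured 282 and 206.7 CPM in IP replicates 1 and 2, against 207.3 and 159 CPM in the Inputs. The groups overlapped, although CDC6 was higher in IP than in Input within each replicate (log2 ratios of 0.44 and 0.38). The log2 fold change of CDC6 was 0.42 ± 0.28 (SE, n = 2 in each group, edgeR adjusted p = 0.312), and with a replicate block it was 0.41 (edgeR adjusted p = 0.0458), still under the fold minimum. CDT1 (chr16:88803789-88809258, plus strand) measured 126 and 117 CPM in the IP libraries against 119.6 and 118 CPM in Input, the closest match between groups among the 10. Its log2 fold change was 0.03 ± 0.22 (SE, edgeR adjusted p = 0.938). The sign for CDT1 turned without Input replicate 2 (-0.13), when scaled by library size alone (-0.57) or by the upper quartile (-0.14) and with a filter of 1 CPM in 2 libraries (-0.0016).

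GMNN, which encodes the inhibitor of CDT1, was enriched. This gene (chr6:24774931-24786099, plus strand) measured 118 and 99.0 CPM in the IP libraries against 53.2 and 33.3 CPM in Input. Both IP libraries were above both Inputs, and the Inputs differed more from each other than the IP libraries did. The log2 fold change was 1.33 ± 0.29 (SE, n = 2 in each group, edgeR adjusted p = 0.0220). Without Input replicate 2 it was 0.88, under the fold minimum, which ended the call, and without Input replicate 1 it was 1.75. Within each replicate pair the log2 ratio of GMNN exceeded that of its target CDT1 by 1.07 and 1.58, and that of CDC6 by 0.70 and 1.18. Such differences between mRNAs of the same libraries do not depend on the scaling.

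LRWD1 (chr7:102464956-102473168, plus strand) measured 39.7 and 36.5 CPM in the IP libraries against 42.2 and 43.8 CPM in Input. Both IP values were below both Input values by a small margin. The log2 fold change was -0.18 ± 0.21 (SE, edgeR adjusted p = 0.581).

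The subunits of the DBF4-dependent kinase differed in their values. CDC7, the catalytic subunit (chr1:91500851-91525764, plus strand), measured 24.0 and 22.7 CPM in the IP libraries against 51.0 and 33.6 CPM in Input, the lowest ratio among the 10 in both replicates (-1.07 and -0.56 on the log2 scale). Its log2 fold change was -0.86 ± 0.27 (SE, n = 2 in each group, edgeR adjusted p = 0.0575). CDC7 was called depleted without Input replicate 2 (-1.28), with upper-quartile scaling (-1.02) and with scaling by library size alone (-1.45). With a replicate block the value was -0.83 (edgeR adjusted p = 0.000649), short of the fold minimum.

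DBF4, the activating subunit (chr7:87876216-87909553, plus strand), measured 52.5 and 43.3 CPM in the IP libraries against 51.0 and 21.9 CPM in Input. The groups overlapped, because Input replicate 1 was 2.33-fold above Input replicate 2, the widest gap between Inputs among the 10. The log2 ratios were 0.04 in replicate 1 and 0.97 in replicate 2, and the log2 fold change was 0.39 ± 0.39 (SE, edgeR adjusted p = 0.50). It was 1.17 and called enriched without Input replicate 1 and -0.24 without Input replicate 2. The ratio of DBF4 exceeded that of CDC7 by 1.11 and 1.53 on the log2 scale in replicates 1 and 2. The exons of DBF4 share 145 bases with those of SLC25A40 on the opposite strand, 3.16% of its exonic length. SLC25A40 was at 18.4 and 17.0 CPM in Input replicates 1 and 2 and at 4.47 and 5.35 CPM in the IP libraries, and was itself depleted (-1.85, edgeR adjusted p = 0.0105). Its part in the DBF4 ratio was not tested. Of the 3 pseudogenes that carry its name, DBF4P1 held at most 9 counts in a library and DBF4P2 and DBF4P3 held 0.

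CDC45, a subunit of the active helicase, was higher in the IP without passing the test. This gene (chr22:19479457-19520612, plus strand) measured 94.3 and 57.8 CPM in the IP libraries against 43.1 and 34.8 CPM in Input, with no overlap. The log2 ratio was 1.12 in replicate 1 and 0.72 in replicate 2, and the log2 fold change was 0.96 ± 0.30 (SE, n = 2 in each group, edgeR adjusted p = 0.0562). It was called enriched without Input replicate 1 (1.17) and without IP replicate 2 (1.32). With a replicate block it was 0.93 (edgeR adjusted p = 0.000176), under the fold minimum.

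TICRR and TOPBP1, which act together in firing, had nearly the same ratios. TICRR (chr15:89575469-89631056, plus strand) measured 126 and 114 CPM in the IP libraries against 51.5 and 44.9 CPM in Input. TOPBP1 (chr3:133598175-133662380, minus strand) measured 319 and 209 CPM in the IP libraries against 130.0 and 84.2 CPM in Input. For both mRNAs each IP library was above each Input. TICRR had a log2 fold change of 1.31 ± 0.23 (SE, n = 2 in each group, edgeR adjusted p = 0.0134) and was called in each of the 4 fits that left out 1 library. TOPBP1 was at 1.30 ± 0.33 (SE, edgeR adjusted p = 0.0330), and its call was lost without IP replicate 1 (1.00, edgeR adjusted p = 0.0799) and without Input replicate 2 (0.87, edgeR adjusted p = 0.0749). Replicate 1 exceeded replicate 2 for TOPBP1 by 1.53-fold in IP and 1.54-fold in Input, so its log2 ratios were 1.29 and 1.30. The ratios of TOPBP1 and TICRR differed by less than 0.03 (0.0049 in replicate 1 and -0.025 in replicate 2, TOPBP1 minus TICRR). Exons of KIF7 on the opposite strand share 589 bases with TICRR (7.0% of its exonic length), and KIF7 reached at most 1.37 CPM.

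RIF1 had the largest fold change among the 10. This gene (chr2:151409883-151508013, plus strand) measured 425 and 339 CPM in the IP libraries against 150.3 and 116 CPM in Input. The groups were well apart, and the log2 ratios were 1.50 and 1.54. The log2 fold change was 1.52 ± 0.27 (SE, n = 2 in each group, edgeR adjusted p = 0.0142), and it stayed called in each of the 4 fits that left out 1 library, between 1.19 and 1.76. Of its exonic length 1.75% is shared with NEB on the opposite strand, which reached 12.4 CPM.

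**Figure D2:**
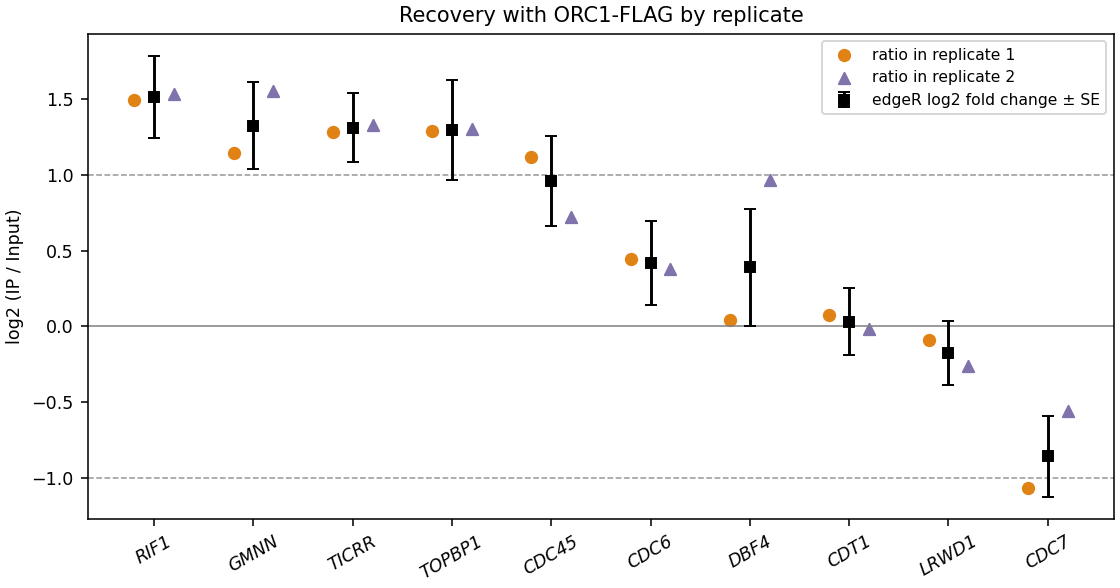
Log2 ratio of IP to Input of each mRNA in replicate 1 (circles) and replicate 2 (triangles) with the edgeR log2 fold change ± SE (squares), ordered by fold change. Dashed lines mark the fold minimum of 1 and -1. RIF1, GMNN, TICRR and TOPBP1 are above 1 in both replicates, DBF4 has the widest gap between replicates (0.93), and CDC7 is lowest.

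The order of the ratios was similar in both replicates. RIF1, TOPBP1, TICRR and GMNN took ranks 1 to 4 in replicate 1, and GMNN, RIF1, TICRR and TOPBP1 did so in replicate 2. CDC7 and LRWD1 were the lowest in both. Calls of these 4 enriched mRNAs depended on the scaling. With library size alone, log2 fold changes shifted by -0.60 at the median gene, and 2.59% of all genes were called enriched and 22.2% depleted. The 4 then ran from 0.69 (TOPBP1) to 0.91 (RIF1), and 0 were called by edgeR. At an unadjusted edgeR p below 0.05 with that scaling, 4 of the 10 were higher and 3 lower. Over all 14645 tested genes 1128 were higher and 5621 lower. With library size alone CDC7 was called depleted, and LRWD1 was at -0.78 (edgeR adjusted p = 0.0249). CDC6, CDT1 and DBF4 were then below 0, at -0.19, -0.57 and -0.20. The median of all genes was -0.59 under that scaling, so the 4 stood about as far above it as with TMM. Relative to CDC7 in the same libraries, the log2 ratio was higher by 2.57 and 2.10 for RIF1, by 2.22 and 2.12 for GMNN, by 2.36 and 1.89 for TICRR and by 2.36 and 1.86 for TOPBP1 in replicates 1 and 2.

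**Figure D3:**
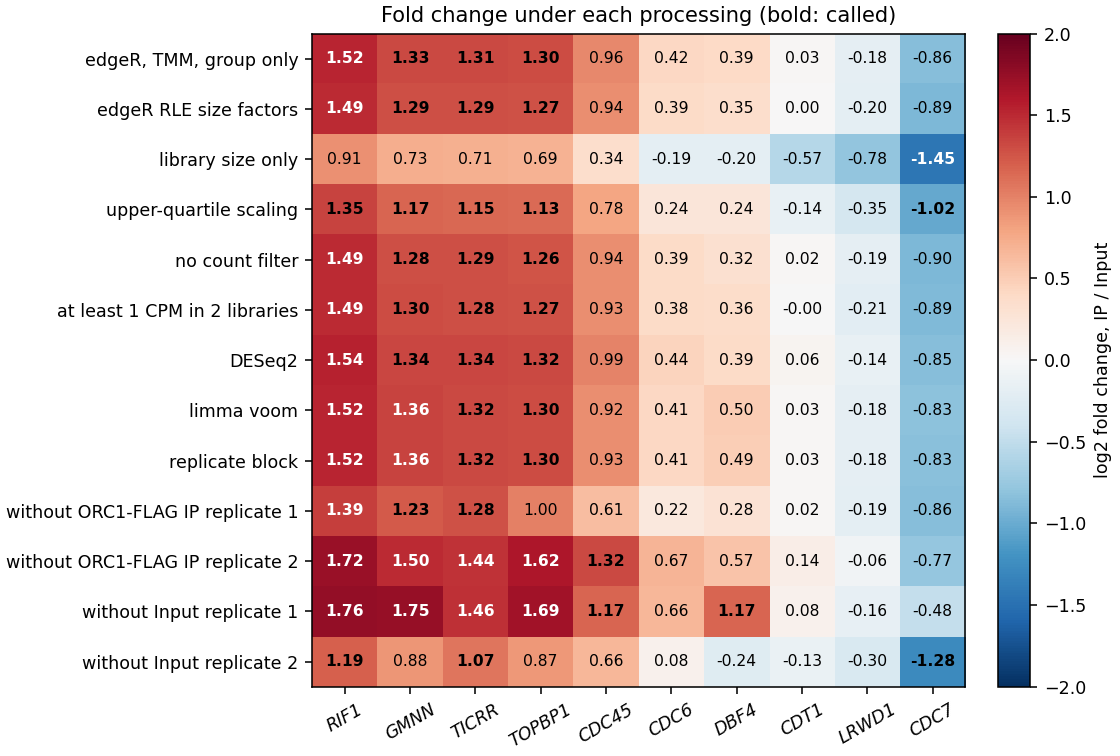
Log2 fold change of the 10 mRNAs (columns) under each processing (rows), colored from blue (below 0) to red (above 0), with called values in bold. RIF1 and TICRR are called in all but the library-size scaling, and CDC7 is called depleted in 3 of the 13 fits.

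Levels were next compared between mRNAs per kilobase of exonic length (the union of exons). In Input, CDT1 was the most abundant at 43.1 ± 0.373 CPM per kilobase (SD, n = 2), followed by CDC6 at 34.5 ± 6.47 and GMNN at 17.5 ± 5.67. From GMNN down, the replicate ranges of each mRNA overlapped with those of the next in the order TOPBP1 (14.6), CDC45 (13.1), CDC7 (11.8), DBF4 (7.93), RIF1 (7.34) and LRWD1 (7.29). TICRR had the lowest mean at 5.73 ± 0.551 CPM per kilobase, below the range of LRWD1 but within that of DBF4 (11.1 and 4.77). The order was different in the IP. GMNN rose to 47.8 and 40.0 CPM per kilobase there, within the span of CDC6 (53.1 and 38.9) and around that of CDT1 (45.8 and 42.3). CDC7, which lay above RIF1 in both Inputs (14.2 and 9.35 against 8.27 and 6.40 CPM per kilobase), lay below it in both IP libraries (6.67 and 6.31 against 23.4 and 18.6). The Input levels of the 10 mRNAs thus covered a range, and CDT1, the highest per kilobase, was not called. This order depends on the length used. Exonic length exceeds that of the canonical transcript, as in LRWD1 (5899 against 2160 bases) and GMNN (2476 against 1263). Without division by length, CDC6 (207.3 and 159 CPM) was above CDT1 (119.6 and 118 CPM) in both Inputs. The part of Input level in the recovery was not tested.

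The 10 mRNAs were also set beside protein-coding genes of similar coding length, in 10 classes of equal size (deciles) over 12534 genes. Coding length was counted on the canonical transcript without the stop codon. RIF1 (7416 bases), TICRR (5730) and TOPBP1 (4566) fell in the longest class, in which the median log2 fold change was 1.07 and 46.6% of 1253 genes were enriched. All 3 were above that median, by 0.45, 0.24 and 0.23, and RIF1 was also above the upper quartile of 1.47. RIF1 lay above 77.2% of the class, TICRR above 65.4% and TOPBP1 above 64.6%. GMNN stood apart from its class. With 627 coding bases it was the shortest of the 10, its class had a median of -0.52 with 2.56% of 1250 genes enriched, and its fold change was above that of 98.1% of them.

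CDC7, CDC45, LRWD1 and DBF4 shared a class (1698 to 2064 coding bases, median 0.28, 10.5% of 1253 genes enriched). CDC45 was above 84.4% of that class and CDC7 above 4.39%, although their coding lengths were 1698 and 1722 bases. DBF4 (2022 bases) was above 56.7% and LRWD1 (1941 bases) above 23.0%. CDC6 (1680 bases) and CDT1 (1638 bases) belonged to the class below, with a median of 0.04, and lay above 71.2% and 49.4% of it. When classes were made from exonic length instead, GMNN was 1.53 above its class median in place of 1.85, CDC7 -0.76 in place of -1.14 and CDC45 1.17 in place of 0.68. LRWD1 was at -0.28 in place of -0.46, DBF4 at 0.37 in place of 0.11, and CDT1 turned from -0.0059 to 0.23. CDC6 stayed near its value (0.39 against 0.38), and RIF1, TICRR and TOPBP1 were 0.91, 1.03 and 1.19 above theirs.

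**Figure D4:**
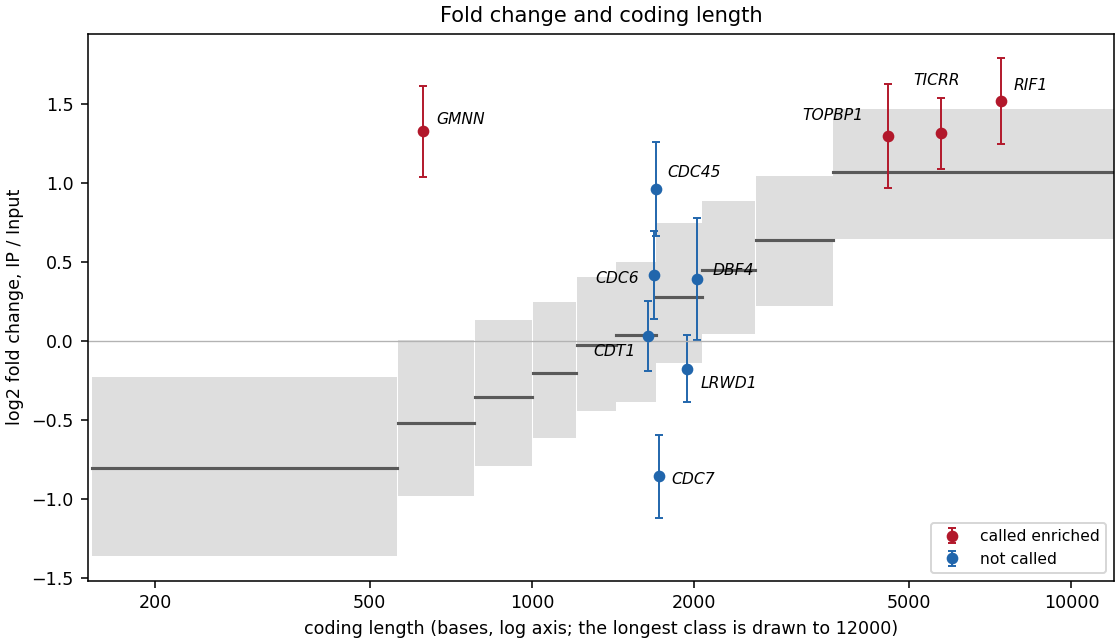
Log2 fold change of the 10 mRNAs (± SE, red if called enriched and blue if not) against coding length in bases on a log axis, over the median (dark line) and interquartile range (gray) of 10 classes of protein-coding genes. TOPBP1 and TICRR lie between the median and the upper quartile of the longest class and RIF1 lies above that quartile, while GMNN lies far above its class and CDC7 below its own.

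The study reported tandem GAA repeats as an enriched motif of ORC1-bound RNAs and concluded that binding does not occur through them. The 10 mRNAs were searched for GAAGAAGAA on the transcript strand, with overlapping matches counted. This exact match is a different measure from the study's motif. The longest transcript of GMNN, DBF4 and RIF1 held 1 copy each and those of the other 7 held none, while 13.6% of tested genes with an annotated transcript held it. In all 3 the repeat was in the coding sequence, where 12.5% of 12534 genes had it. That share rose with coding length, and was 6.48% in the class of GMNN, 12.4% in that of DBF4 and 33.1% in that of RIF1. Its reverse complement TTCTTCTTC was in 0 of the 10 and in 5.29% of tested genes. The 3 sites are shown with 9 bases on each side, from the GENCODE v44 transcripts on GRCh38, 5′ to 3′, with the repeat in capitals.
GMNN: tttgattctGAAGAAGAAactgttgag
DBF4: gttgaaagaGAAGAAGAAaaaaggata
RIF1: cgacgtaagGAAGAAGAAaaacctctt
They lie at chr6:24785689-24785715 in exon 7 of GMNN, chr7:87900812-87900838 in exon 10 of DBF4 and chr2:151463847-151463873 in exon 30 of RIF1, all on the plus strand of coding exons. The repeat starts at the first base of a codon in GMNN and RIF1 and at the third in DBF4. Of these 3, GMNN and RIF1 were enriched and DBF4 was not called.

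Since TICRR and TOPBP1 were enriched with no such repeat, and CDC6 was not called, the 30 coding bases with the most GAA triplets within an exon are given for these mRNAs and for CDC7, with each GAA in capitals.
TICRR: aattgGAAgacagagGAAGAAcactaaGAA
TOPBP1: GAAGAAtatcttcagattattacaGAAGAA
CDC6: tGAAgaGAAaGAAataGAAcatgctctGAA
CDC7: ttaGAAggctgGAAtgaggtacctgatGAA
They are at chr15:89595567-89595596 (exon 7), chr3:133659100-133659129 (exon 3, minus strand), chr17:40301926-40301955 (exon 12) and chr1:91524304-91524333 (exon 12), with the others on the plus strand. TICRR and TOPBP1 have 4 triplets in this window, CDC6 has 5 and CDC7 has 3. By the same count CDC45 has 4, and CDT1 and LRWD1 have 2 each, and none of them was called. Such a window was not sought in GMNN, DBF4 and RIF1.

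Copies of the shorter GAAGAA in the coding sequence ranged from 0 in CDT1 and LRWD1 to 14 in TOPBP1 and 17 in RIF1. The median of the longest class was 6, which TICRR matched with 6 copies. GMNN held 4 copies where its class had a median of 1, more than 94.5% of that class. DBF4 held 5 and CDC7 held 2, and their class median was 2. CDC6 and CDC45 held 1 copy each. CDT1 and LRWD1, without a copy, had the highest GC content of the coding sequence among the 10, at 68.3% and 64.4%, and the others ranged from 36.2% (DBF4) to 52.2% (CDC45). These counts are descriptive, and their part in the recovery of the mRNAs was not tested.

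Other genes of the pathway were taken as 5 lists, which were chosen with earlier results of these data known. ORC1 aside, 13 of their 53 genes were enriched and 3 depleted, beside 10.5% and 8.30% of all tested genes, and their median log2 fold change was 0.50 beside 0.01 (0.0079). With scaling by library size alone the balance turned to 3 enriched and 11 depleted, beside 2.59% and 22.2% of all tested genes. Among the partners of the firing factors TICRR, TOPBP1 and CDC45 (17 genes for helicase assembly and firing, median 0.54), the enriched mRNAs were MCM10 (2.28), WDHD1 (1.80) and CLSPN (1.50), and GINS1, which binds CDC45 in the helicase, was depleted (-1.25). Among 14 genes for licensing control and for turnover of CDT1, CDC6 or ORC1 (median 0.52), CUL1 (1.52), KMT5A (1.40) and DDB1 (1.00) were enriched. DDB1 fell to 0.98 with a replicate block, under the fold minimum. SKP2, which recognises CDT1 for degradation, was depleted (-1.42). The mRNAs of the PP1 partners of RIF1 had values below 0 (3 genes, median -0.53), and PPP1CB was depleted (-1.51). These 3 mRNAs have 969 to 990 coding bases, and the class of that length (783 to 999 bases) had a median of -0.36. The class of RIF1 had a median of 1.07. Of 8 checkpoint partners of TOPBP1 (median 0.31), 1 was enriched, the kinase ATR (1.58). Coding length differed widely among the genes named from these lists, from 588 bases in GINS1 to 7932 in ATR. The part of length in their values was not tested. The 11 genes of ORC without ORC1 and of MCM had a median of 1.10 with 6 enriched, led by MCM3 (1.82), ORC3 (1.47) and MCM7 (1.45). ORC3 was the only ORC gene among the 6. ORC2 (-0.52), ORC4 (-0.89) and ORC5 (-0.67) had both IP libraries below both Inputs and were not called. ORC6 (0.48) and MCM5 (0.47) were above 0 and not called. Of the 16 called genes in these lists 9 kept their call in each fit that left out 1 library. The call of DDB1 was lost without IP replicate 1, Input replicate 1 or Input replicate 2, that of KMT5A without IP replicate 1 or Input replicate 2, that of GINS1 without IP replicate 2 or Input replicate 1, that of SKP2 without Input replicate 1 and that of MCM7 without IP replicate 1. MCM2 and MCM4 lost theirs without IP replicate 1 or Input replicate 2, so 3 of the 6 enriched ORC and MCM genes were lost without IP replicate 1. Adjusted p values of the called genes named here, from edgeR over all genes, ran from 0.0105 (MCM10) to 0.0472 (DDB1).

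**Figure D5:**
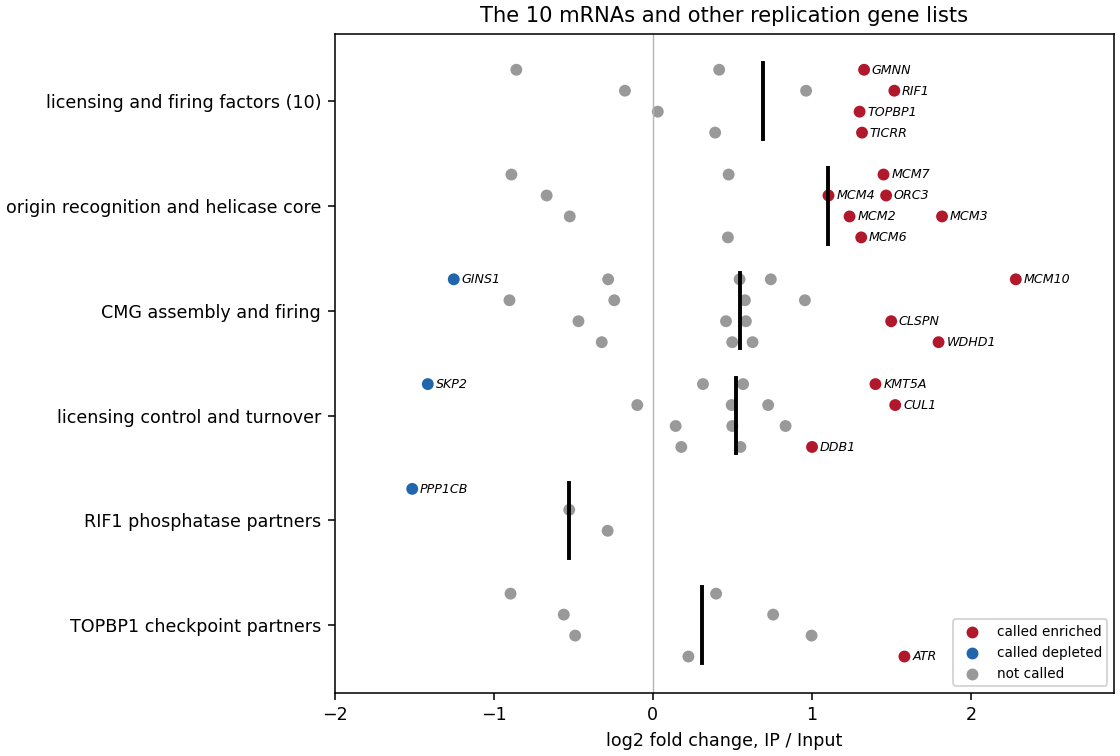
Log2 fold change of the 10 mRNAs and of the 5 other lists (ORC1 left out), 1 point per gene, red if called enriched, blue if called depleted and gray if not called, with the median of each list as a vertical line. Points are spread vertically only to keep them apart. The 10 mRNAs have a median of 0.69 and 4 enriched genes, and the 3 phosphatase genes all lie below 0.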

How the data were processed

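The table deposited by the authors holds raw counts of reads per Ensembl gene in 4 libraries. Per the submitters' processing notes and the study's methods, reads of a stranded total RNA kit went through Trimmomatic, STAR on hg19 and featureCounts. The annotation release and the strand setting are not given in the sources used here, so reads of overlapping opposite-strand genes cannot be told apart. Symbols, lengths, coordinates and sequences come from GENCODE v44 on GRCh38, joined by gene identifier (14265 of 14645 tested genes matched).

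IP was compared with Input by edgeR 4.0.16 (R 4.3.3), quasi-likelihood with robust dispersions, TMM scaling, filterByExpr and group as the only term. SE was derived from the F statistic. Replicate log2 ratios used scaled CPM plus 0.5. Same-numbered libraries came from the same RIP by their labels, and their deviations from group means correlated (r = 0.647), so a replicate block was an alternative, beside DESeq2 1.42.0 and limma 3.58.1 voom, other scalings, filters and call rules, and leaving out each library. The labels do not say whether replicates were separate cultures, so p values measure the spread between these libraries. Scripts were tested on simulated data. Reads carry no molecular identifiers. The members, lists and rules were chosen with earlier results of these data known. All 10 members were named, with up to 3 called genes per direction from each other list and further genes of the ORC and MCM list.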

Additional observations from a re-analysis of the deposited data

How the results depend on the processing

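With 4 enriched and 0 depleted, the counts of called mRNAs among the 10 were the same under RLE size factors, both other count filters, DESeq2, limma voom, the replicate block and the call rules without a fold minimum or with an unadjusted p. Scaling by library size alone gave 0 enriched and 1 depleted, with 3 and 11 in the other lists and 380 and 3257 over all genes, and CDC6, CDT1 and DBF4 turned negative (-0.19, -0.57 and -0.20). Upper-quartile scaling gave 1 depleted among the 10 and 6 in the other lists, beside 1542 of all 14645 tested genes. It put CDT1 at -0.14, and the filter of 1 CPM in 2 libraries put CDT1 at -0.0016. glmTreat, whose null includes changes up to the fold minimum, called 0 of the 10, 0 enriched and 0 depleted in the other lists, and 0 enriched and 1 depleted over all genes (at an unadjusted p below 0.05, 2 of the 10 were higher, and 9 were higher and 2 lower in the other lists, and 913 and 863 over all genes). With the replicate block, the pairing of IP and Input by RIP, 1960 genes were enriched and 1957 depleted in place of 1542 and 1215, and no call among the 10 changed. Leaving out 1 library gave 2 to 6 enriched and 0 to 1 depleted of the 10, and 8 to 16 enriched and 1 to 7 depleted in the other lists, with CDT1 from -0.13 to 0.14 and DBF4 from -0.24 to 1.17. Without Input replicate 2, 2 of the 10 were enriched (RIF1 and TICRR), and without Input replicate 1, 6 were. The causes of these changes were not tested. With 2 libraries per group a fold change near the minimum of 1 cannot be placed on either side of it.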
